A study of Mus musculus with 3 samples.

Results

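Gene expression at high cell density was set against that at low cell density in the mouse macrophage line RAW264.7, which was established from a tumour raised with Abelson leukaemia virus. The comparison covers every gene with a symbol, a status other than failed and at least 1 FPKM (fragments per kilobase of transcript, scaled to library depth by Cuffdiff) in either library. Where a symbol had several rows, the row with the largest sum of both libraries was kept. In this way 10911 genes were measured, of 11402 measured across the whole series. Untreated RAW264.7 cells seeded at high density (HD) and untreated cells of the same line seeded at low density (LD) gave 1 RNA-seq library each. Both kinds of culture were kept in RPMI medium with 10% heat-inactivated serum at 37 °C and 5% CO2. So were dense cells given lipopolysaccharide (500 ng/ml for 24 h), whose library takes no part in the comparison. The sources used here do not give the cell numbers seeded, the oxygen in the medium or the time from seeding to harvest of the low density cells. With 1 library a group there is no replicate spread to set a difference against, no p-value was computed, and every value describes these 2 libraries of 1 line.

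Cells read their oxygen supply through hypoxia-inducible factor (HIF). Prolyl hydroxylases use oxygen to mark the HIF alpha subunits, the von Hippel-Lindau protein binds the marked subunits, and the proteasome destroys them. Where oxygen runs short the alpha subunits escape, pair with ARNT and bind a short core motif beside genes of glucose uptake, glycolysis, angiogenesis and mitophagy. Macrophages rely on this pathway in inflamed and poorly perfused tissue, and the nitric oxide synthase gene Nos2 is among its targets. Crowding of cultured cells also touches growth factor supply, mTORC1 (the kinase complex that couples nutrients to growth) and entry into S phase.

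The summed FPKM of all rows was 766479 at high density and 665489 at low density. For a transcript of 1 kilobase, 1 FPKM was worth roughly 16.1 fragments in the high density library and 16.3 in the low density library, judged from the smallest values of single-transcript genes. Both libraries carried the identity of the line: 10 of 12 macrophage markers were measured, their summed level being 2382 FPKM at high density and 3039 FPKM at low density. Mertk was listed at 0 in both libraries, and Cd68 lay in a row joined with a neighbour. No marker of fibroblasts, epithelium, endothelium, T cells, B cells or mast cells reached the minimum of 1 FPKM, against 2 of 5 neutrophil markers, 1 of 5 dendritic cell markers and 5 of 8 osteoclast markers. Osteoclast markers summed to 43.8 FPKM at high density and 41.8 FPKM at low density.

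Across all genes the log2 ratio, log2((HD + 1)/(LD + 1)), had a median of 0.01, and the middle 50% of genes lay between -0.25 and 0.30. This scale understates the change of genes with low values. A ratio of 1 or more was reached by 386 genes, 3.54% of those measured, and a ratio of -1 or less by 99 genes, 0.907% (4.45% in either direction). Of the genes past 2-fold, 286 of the higher and 64 of the lower ones had at least 1 FPKM in both libraries. In all, 390 genes were measured only through the high density library and 247 only through the low density library. The other 100 higher and 35 lower genes past 2-fold were among these, so the minimum fixed the direction of their difference. In the other library, 32 of those 100 and 24 of those 35 were listed at 0. The preponderance of higher genes depended on the scaling. As deposited, 79.6% of the genes past 2-fold were higher, but when both libraries were brought to the same sum without the 20 highest rows, 246 genes were higher and 249 lower (49.7% higher) and the median of all genes moved to -0.21. List medians below are therefore read against the median of all genes. A list is called higher or lower only where its median lay at least 0.2 from it. Counts of list members past 2-fold are on the scaling as deposited and were not repeated after rescaling, so members near the threshold depend on it. The wider tails held 49 genes at least 4-fold higher and 17 at least 4-fold lower.

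**Figure D1:**
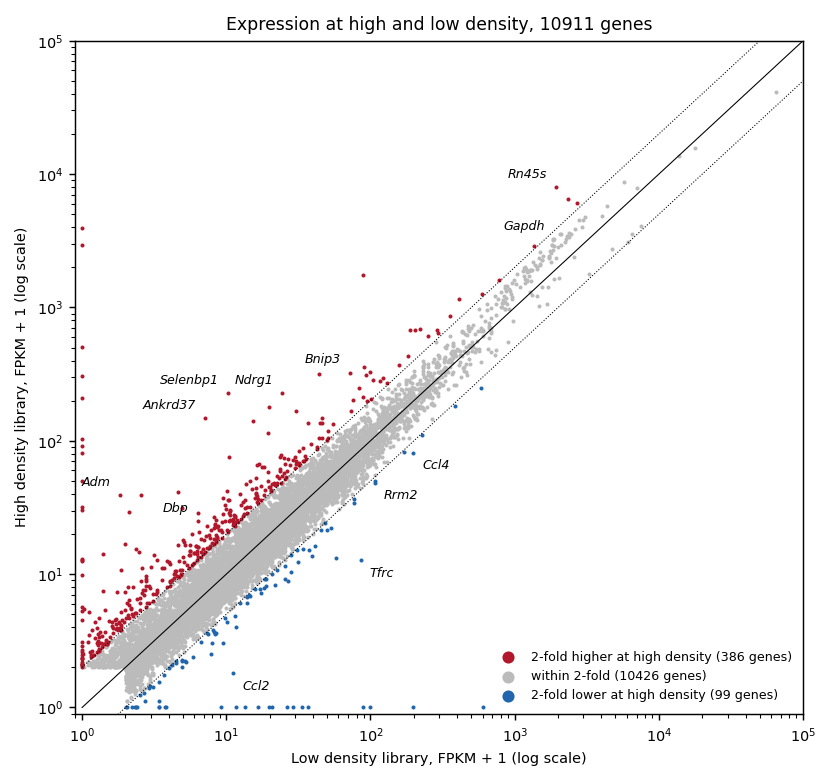
FPKM + 1 of 10911 genes in the high density library (vertical, log scale) and the low density library (horizontal, log scale), with each gene a point, the solid line at equality and the dotted lines at 2-fold. Of the 386 genes at least 2-fold higher at high density 49 lie past 4-fold, as do 17 of the 99 lower ones, and points on the axes' edges are genes listed at 0 in 1 library.

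The protein-coding genes that stood farthest above the diagonal came from several branches of metabolism and signalling. Among genes with at least 10 FPKM in the higher library, more than 0 in both and a row of their own, the 20 largest log2 ratios ran down to 1.97. Selenbp1, encoding methanethiol oxidase, led with 226 FPKM at high density and 9.22 FPKM at low density, a log2 ratio of 4.47. Its close paralog Selenbp2 (chr3:94693573-94704406) had 28.4 FPKM at high density and 1.13 FPKM at low density, a ratio of 3.79. The paralogs lie near each other on the same chromosome and their reads may have been shared between them, which cannot be told apart from the FPKM. Ephx1 (chr1:180989556-181017569), the microsomal epoxide hydrolase that opens reactive epoxides, had 40.2 FPKM at high density and 3.65 FPKM at low density. Ero1l (chr14:45283087-45318572), the oxidase that passes electrons from disulphide formation in the endoplasmic reticulum to oxygen, had 316 FPKM at high density and 43.1 FPKM at low density. Gbe1 (chr16:70313949-70569720), the glycogen branching enzyme, had 30.3 FPKM at high density and 3.95 FPKM at low density. The log2 ratio was 3.15 for Ephx1, 2.85 for Ero1l and 2.66 for Gbe1, so each was more than 4-fold higher.

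Several less familiar genes shared the top of the ranking. Gucy2g (chr19:55197776-55241252), a receptor guanylate cyclase, had 14.5 FPKM at high density and 1.38 FPKM at low density, and Dnm1 (chr2:32308471-32353349), a dynamin of endocytosis best known from neurons, had 13.7 FPKM at high density and 1.47 FPKM at low density. Sema4g (chr19:44986489-45003914), a membrane semaphorin, had 10.2 FPKM at high density and 1.61 FPKM at low density, and Tcp11l2 had 27.8 FPKM at high density and 5.32 FPKM at low density. Their log2 ratios were 2.71 for Gucy2g, 2.57 for Dnm1, 2.10 for Sema4g and 2.19 for Tcp11l2. All of these were low at low density, between 1.38 and 5.32 FPKM. 1600014C23Rik, an uncharacterised gene on chromosome 17, had 13.1 FPKM at high density and 0.394 FPKM at low density and rested on about 3.32 fragments at low density, so its ratio of 3.34 has a wide counting error. Gsn (chr2:35222260-35307902), encoding the actin-severing protein gelsolin, closed the list at a far higher level, 355 FPKM at high density and 89.6 FPKM at low density.

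**Figure D2:**
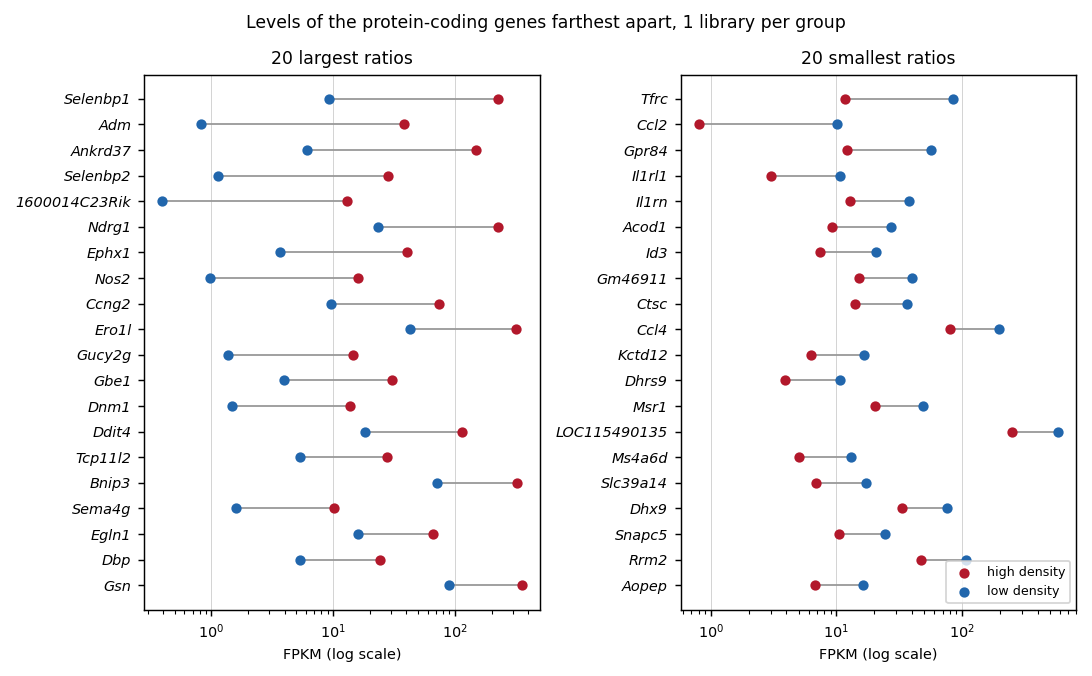
FPKM (log scale) of the 20 protein-coding genes with the largest (left) and the 20 with the smallest (right) log2 ratios, with red points for the high density library and blue points for the low density library. Selenbp1 spans 226 FPKM at high density and 9.22 at low density, and Tfrc spans 11.7 FPKM at high density and 84.5 at low density.

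The low end was less extreme and held surface receptors, secreted factors and genes of nucleic acid metabolism. Tfrc, the transferrin receptor that brings iron into cells, had 11.7 FPKM at high density and 84.5 FPKM at low density, a log2 ratio of -2.75. Il1rl1 (chr1:40404834-40465418), encoding the IL-33 receptor ST2, had 2.99 FPKM at high density and 10.7 FPKM at low density, and Id3 (chr4:136143822-136145392), an inhibitor of basic helix-loop-helix factors, had 7.33 FPKM at high density and 20.8 FPKM at low density. Ctsc (chr7:88278024-88315861), the protease cathepsin C that activates granule serine proteases, had 14.1 FPKM at high density and 36.6 FPKM at low density. The log2 ratios of these 3 genes lay between -1.55 and -1.31. Msr1 (chr8:39543232-39643680), a class A scavenger receptor for modified lipoproteins, had 20.3 FPKM at high density and 49.1 FPKM at low density. Slc39a14 (chr14:70303467-70351452), an importer of zinc and iron, had 6.89 FPKM at high density and 17.2 FPKM at low density. Rrm2 (chr12:24708254-24714146), the subunit of ribonucleotide reductase that is made in S phase, had 47.3 FPKM at high density and 106 FPKM at low density, and Dhx9 (chr1:153455756-153487688), an RNA helicase, had 32.96 FPKM at high density and 75.7 FPKM at low density. The remaining genes of the 20 smallest ratios were Ccl2, Gpr84, Il1rn, Acod1, Ccl4, Kctd12, Dhrs9, Ms4a6d, Snapc5, Aopep and the gene models Gm46911 and LOC115490135. The 20 smallest ratios lay between -2.75 and -1.14.

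The authors' deposited table carries its own test of each locus, made by Cuffdiff without replicates. A q-value below 0.05 was given to 33 loci in the authors' deposited table, of which 31 were higher and 2, Tfrc and Gpr84, lower. Of these, 28 were among the 10911 genes measured here (0.257%), and 3 had no symbol. Genes in the authors' deposited table at that threshold that the ranking above leaves out included Tnfrsf9 (chr4:150920155-150946104), the co-stimulatory receptor 4-1BB, with 38.4 FPKM at high density and 1.55 FPKM at low density, and Anxa2 (chr9:69453683-69491792), the membrane-binding protein annexin A2, with 329 FPKM at high density and 98.8 FPKM at low density. Fam162a (chr16:36043844-36071561), a mitochondrial protein, had 679 FPKM at high density and 186 FPKM at low density, and Echdc3 (chr2:6188465-6321611) had 36.1 FPKM at high density and 8.52 FPKM at low density. Ier3 (chr17:35821713-35822911), an early response gene, had 147 FPKM at high density and 45.3 FPKM at low density, and Epm2a (chr10:11342691-11459664), the glycogen phosphatase laforin, had 9.71 FPKM at high density and 0.851 FPKM at low density. The q-value of Tnfrsf9, Anxa2, Fam162a, Echdc3, Ier3 and Epm2a was 0.0217 in the authors' deposited table, the smallest it holds. The row that joins Hyal1, Hyal3 and Naa80, of which Hyal1 and Hyal3 encode hyaluronidases, had 139 FPKM at high density and 14.3 FPKM at low density, and cannot be divided among its genes.

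Because many of the genes at the top are known HIF targets, their promoters were read for the HIF core motif, ACGTG (or GCGTG), on either strand. RefSeq promoter windows of GRCm38.p6, from 250 bases before to 50 after a gene's start, were at hand for 8172 of the measured genes. Of these windows, 27.0% held ACGTG. The share was 32.9% of the 249 windows of genes at least 2-fold higher, 50% (11 of 22) of those at least 4-fold higher, and 19.6% (11 of 56) of those at least 2-fold lower. Of the 20 protein-coding genes with the largest ratios, 17 had a window and 10 of these held ACGTG. The 250 bases upstream of 5 such genes, and of Adm, which has no ACGTG in its window, are given to show where the motif lies and how alike the Selenbp paralogs are. They run 5′ to 3′ on the gene's own strand, capitals mark ACGTG or, where the motif is on the other strand, its complement CACGT, and the 6 genes were picked after their values were seen.
Selenbp1: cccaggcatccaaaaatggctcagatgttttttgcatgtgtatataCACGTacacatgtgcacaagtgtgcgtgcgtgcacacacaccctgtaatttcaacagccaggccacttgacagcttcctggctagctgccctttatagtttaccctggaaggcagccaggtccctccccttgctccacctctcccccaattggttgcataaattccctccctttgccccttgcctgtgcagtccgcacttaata
Selenbp2: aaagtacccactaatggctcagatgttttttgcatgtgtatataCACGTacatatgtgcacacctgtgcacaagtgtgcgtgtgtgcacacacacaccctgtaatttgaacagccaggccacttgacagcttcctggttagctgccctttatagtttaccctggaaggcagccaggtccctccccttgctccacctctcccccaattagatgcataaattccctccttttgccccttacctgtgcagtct
Ankrd37: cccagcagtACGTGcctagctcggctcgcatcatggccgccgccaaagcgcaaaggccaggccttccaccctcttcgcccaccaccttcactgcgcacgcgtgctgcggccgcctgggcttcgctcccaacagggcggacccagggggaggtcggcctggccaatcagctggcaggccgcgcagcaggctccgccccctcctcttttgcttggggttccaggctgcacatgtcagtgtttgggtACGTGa
Ddit4: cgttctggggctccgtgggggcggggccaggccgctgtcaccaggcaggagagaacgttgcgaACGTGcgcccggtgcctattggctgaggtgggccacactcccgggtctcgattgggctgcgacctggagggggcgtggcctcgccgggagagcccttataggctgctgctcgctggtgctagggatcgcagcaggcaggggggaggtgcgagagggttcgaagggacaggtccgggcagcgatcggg
Bnip3: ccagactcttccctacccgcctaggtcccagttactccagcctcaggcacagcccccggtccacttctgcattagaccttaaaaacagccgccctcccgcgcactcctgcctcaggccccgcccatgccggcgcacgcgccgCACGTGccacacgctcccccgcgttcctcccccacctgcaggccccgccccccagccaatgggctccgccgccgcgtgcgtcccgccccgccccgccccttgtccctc
Adm: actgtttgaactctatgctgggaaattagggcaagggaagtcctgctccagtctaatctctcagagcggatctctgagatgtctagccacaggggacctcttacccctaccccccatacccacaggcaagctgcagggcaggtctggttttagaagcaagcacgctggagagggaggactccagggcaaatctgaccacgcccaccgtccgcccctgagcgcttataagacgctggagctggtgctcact

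The Selenbp1 stretch lies on the plus strand at chr3:94932833-94933082 and that of Selenbp2 on the plus strand at chr3:94693323-94693572. Aligned end to end they were identical at 225 of 262 alignment columns (85.9%), and each holds a single match that begins 204 bases (Selenbp1) and 206 bases (Selenbp2) before the start of the gene. The Ankrd37 stretch (chr8:45999851-46000100, minus strand) holds 2 matches, 241 and 6 bases before the start. The Ddit4 stretch (chr10:59951771-59952020, minus strand) holds 1 match at 187 bases, and in the Bnip3 stretch (chr7:138909507-138909756, minus strand) the matches on the 2 strands overlap as the palindrome CACGTG about 108 bases before the start. The Adm stretch (chr7:110627407-110627656, plus strand) holds no ACGTG, although its whole window holds GCGTG in 2 places. Ephx1, Ccng2, Gucy2g, Gbe1, Dnm1 and Gsn also had no ACGTG in their windows. The other core, GCGTG, was in 52.6% of the windows of genes at least 2-fold higher, 53.6% of those at least 2-fold lower and 52.9% of all, and in 68.2% (15 of 22) of those at least 4-fold higher. A match says only that the letters are present and carries no evidence of binding, and no match says nothing about sites outside the window.

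**Figure D3:**
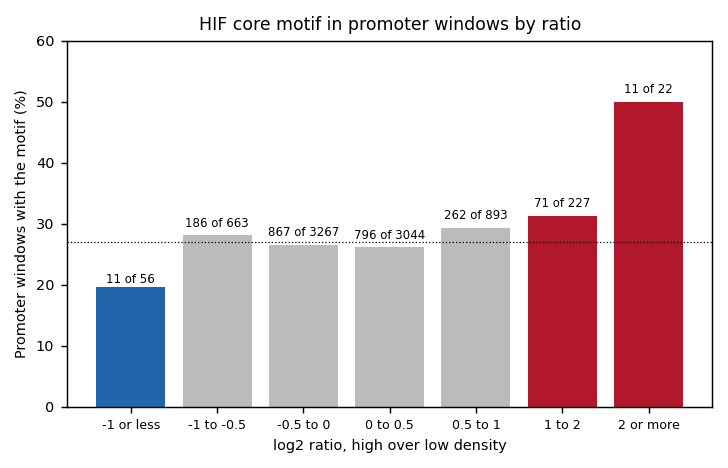
Share of RefSeq promoter windows (percent, vertical) that hold the HIF core ACGTG on either strand, by bin of the log2 ratio of high over low density (horizontal), with the number of windows on each bar and the dotted line at the share of all windows. The share is 19.6% in the lowest bin, close to the 27.0% of all windows through the middle, and 50% among the 22 windows at a ratio of 2 or more.

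Motifs of other factors were counted in the same windows. The box CCAAT was also in 50% (11 of 22) of the windows of genes at least 4-fold higher, against 39.4% of all, and the TATA box, TATAAA, was in 18.2% (4 of 22) of them, against 6.58% of all. A higher share among the 22 windows at 4-fold than among all windows was thus not limited to the HIF core motif. The E2F motif TTTNGCGC was in 0.402% (1 of 249) of the windows of genes at least 2-fold higher, 3.57% (2 of 56) of those at least 2-fold lower and 2.72% of all. The AP-1 motif TGANTCA was in 3.61% of the windows of higher genes, 10.7% (6 of 56) of those of lower genes and 4.78% of all. The E-box CACGTG, which contains the HIF core on both strands, was in 10.8% of the windows of higher genes, 8.93% of those of lower genes and 10.8% of all. The GC content of the windows had a median of 60% for higher genes, 54.7% for lower genes and 61% for all.

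The components of the oxygen sensor itself differed unequally. Of 11 measured genes of oxygen sensing and HIF feedback, 4 were past 2-fold on the higher side and 0 on the lower, and the list median was 0.76 against 0.01 for all genes. With no minimum it lay only 0.15 above that of all genes, under the margin of 0.2. Egln1 (chr8:124908587-124949254), the main prolyl hydroxylase, had 66.04 FPKM at high density and 15.9 FPKM at low density, whereas Egln2, a second hydroxylase, had 22.5 FPKM at high density and 22.8 FPKM at low density. Hif1a, encoding the alpha subunit, had 18.2 FPKM at high density and 27.9 FPKM at low density and so was lower at high density, and the asparaginyl hydroxylase gene Hif1an had 4.89 FPKM at high density and 7.03 FPKM at low density. Vhl had 20.7 FPKM at high density and 10.8 FPKM at low density and Arnt had 18.5 FPKM at high density and 14.9 FPKM at low density. The transcripts that code for the feedback enzyme were therefore higher while that of the alpha subunit was not, with ratios of 1.98 for Egln1 and -0.59 for Hif1a. The basic helix-loop-helix repressor gene Bhlhe40 had 29.6 FPKM at high density and 8.92 FPKM at low density, and its relative Bhlhe41 had 72.8 FPKM at high density and 24.1 FPKM at low density. Ankrd37, an ankyrin repeat gene whose locus overlaps its neighbour Ufsp2, had 148 FPKM at high density and 6.10 FPKM at low density.

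Secreted and surface factors linked to HIF were higher in part, with 5 of 9 measured genes at least 2-fold higher and 1 lower. Adm, encoding the vasodilator peptide adrenomedullin, had 38.2 FPKM at high density and 0.822 FPKM at low density, and the low density value rested on about 18.6 fragments. Vegfa, the vascular growth factor, had 65.9 FPKM at high density and 24.5 FPKM at low density. The chemokine receptor gene Cxcr4 had 24.8 FPKM at high density and 10.2 FPKM at low density. Plaur, encoding the urokinase receptor, stood the other way at 5.07 FPKM at high density and 11.5 FPKM at low density, a log2 ratio of -1.04. The median of the list was 1.21, and 0.87 over the 8 members with at least 1 FPKM in both libraries. With no minimum, which admits members of lower values, the median lay 0.43 above that of all genes, against 1.19 as reported.

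Genes of glucose entry and glycolysis were higher as a group. Of 22 measured genes of glucose entry and glycolysis, 8 were at least 2-fold higher, 0 lower and 18 above the median of all genes. The list median was 0.79. Of the 8, Pgk1, Aldoa, Hk2, Gpi1 and Pfkm lay near the threshold, at log2 ratios between 1.06 and 1.18. Aldoa, the main aldolase, had 2864 FPKM at high density and 1363 FPKM at low density, Gpi1, the glucose phosphate isomerase, had 641 FPKM at high density and 292 FPKM at low density, and Hk2, a hexokinase, had 41.6 FPKM at high density and 19.3 FPKM at low density. Eno2, a further enolase, lay in a row joined with Lrrc23 at 167 FPKM at high density and 29.5 FPKM at low density. The genes of the bifunctional enzyme that sets fructose 2,6-bisphosphate differed among themselves, Pfkfb3 having 18.9 FPKM at high density and 9.07 FPKM at low density, a log2 ratio of 0.98, and Pfkfb1, Pfkfb2 and Pfkfb4 having ratios of -0.34, -0.14 and -0.21. On the way out of glycolysis the list median was 0.29 over 18 genes. Bsg, the chaperone of lactate carriers, had 611 FPKM at high density and 249.98 FPKM at low density, and Pdk2, a kinase that switches off pyruvate dehydrogenase, had 5.04 FPKM at high density and 1.03 FPKM at low density. The lactate carrier gene Slc16a1 was lower at 46.3 FPKM at high density and 81.01 FPKM at low density, and the other carrier gene, Slc16a3, had 242 FPKM at high density and 176 FPKM at low density.

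Of the glycogen genes, the higher ones included those of priming, synthesis and branching. Of 14 measured genes 4 were past 2-fold, all of them higher, and the median was 0.34. Gyg, the glycogenin that primes the polymer, had 67.5 FPKM at high density and 31.2 FPKM at low density, and Gys1, the synthase, had 76.8 FPKM at high density and 22.8 FPKM at low density. With the branching enzyme Gbe1 at a ratio of 2.66 and the phosphatase laforin, Epm2a, at 2.53, these were the 4 genes past 2-fold. Epm2a had 0.851 FPKM at low density and so was measured only through the high density library. Over the 13 members with at least 1 FPKM in both libraries the median was 0.33. Of the genes of glycogen breakdown, the phosphorylase gene Pygb had 45.1 FPKM at high density and 36.4 FPKM at low density.

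Of 8 measured mitophagy genes 3 were past 2-fold, all of them higher. Bnip3 (chr7:138888969-138909511), a receptor on the outer mitochondrial membrane, had 324 FPKM at high density and 71.4 FPKM at low density, and its paralog Bnip3l had 82.97 FPKM at high density and 30.7 FPKM at low density. Pink1, the kinase that marks damaged mitochondria, had 21.3 FPKM at high density and 7.22 FPKM at low density. The other 5 measured members had ratios between 0.04 and 0.44, and the list median was 0.36. Of 30 core autophagy genes, Map1lc3a and Wipi1 were past 2-fold, 26 lay above the median of all genes and the list median was 0.29. All 7 measured genes of the collagen and lysyl hydroxylase list lay above the median of all genes. The hydroxylases themselves also need oxygen and iron. P4hb, a protein disulphide isomerase and a subunit of the collagen prolyl hydroxylases only, was the only 1 past 2-fold. It had 856 FPKM at high density and 354 FPKM at low density. The next highest, the lysyl hydroxylase gene Plod1, had a log2 ratio of 0.75.

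Jumonji histone demethylases, which likewise use oxygen and iron, showed no shared shift (median -0.04 over 20 genes) but 4 of them were at least 2-fold higher. Kdm4b had 19.7 FPKM at high density and 5.51 FPKM at low density, Kdm5b had 6.57 FPKM at high density and 2.32 FPKM at low density, and Kdm3a had 27.2 FPKM at high density and 12.3 FPKM at low density. Jmjd6, a lysyl hydroxylase of the same fold, had 104 FPKM at high density and 45.3 FPKM at low density. The lowest of the list was Kdm8 at a ratio of -0.50, so 0 members were 2-fold lower.

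Brakes on mTORC1 signalling and genes of growth factor withdrawal were higher as groups. Of 12 measured genes listed as brakes on mTORC1 or its output, 4 were past 2-fold, and all 4 were higher. Ddit4 (chr10:59949675-59951770), also called REDD1, had 113 FPKM at high density and 18.4 FPKM at low density. Castor1, an arginine sensor, had 21.98 FPKM at high density and 7.78 FPKM at low density. Eif4ebp1 had 294 FPKM at high density and 121 FPKM at low density. Its protein is not a brake on mTORC1 itself but acts below it, where it blocks cap-dependent translation. The fourth was Trib3 at 17.3 FPKM at high density and 5.67 FPKM at low density. Targets of FOXO factors and other genes of growth factor withdrawal had a median of 0.64 over 18 genes, 16 of them above the median of all. In that list Ccng2, Ddit4 and Pink1 were past 2-fold, and Tsc22d3, a glucocorticoid and FOXO target, had 8.58 FPKM at high density and 3.99 FPKM at low density. The network of MYC, MAX and MXD genes had no direction, with 6 of 11 measured genes above the median of all and 5 below it, but 2 antagonists of MYC in it were past 2-fold. Mxd1 had 8.19 FPKM at high density and 1.78 FPKM at low density and Mxd4 had 11.7 FPKM at high density and 2.31 FPKM at low density. Mycn, a gene of the MYC family itself, had 705 FPKM at high density and 587 FPKM at low density.

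Among cell cycle genes, those of replication lay lower as a group, while those of mitosis did not. The list of cyclins, CDK inhibitors and E2F factors had no direction, with a median of -0.04 over 27 genes. It held 2 genes past 2-fold higher, Cdkn2d and Ccng2, and 2 past 2-fold lower. Ccnd1, encoding cyclin D1, had 35.4 FPKM at high density and 75.9 FPKM at low density, and Ccne2, a cyclin E, had 2.11 FPKM at high density and 5.66 FPKM at low density, both past 2-fold lower. On the other side Cdkn2d had 100.4 FPKM at high density and 48.6 FPKM at low density, Cdkn1b had 43.6 FPKM at high density and 23.95 FPKM at low density and Cdkn1a had 63.2 FPKM at high density and 31.96 FPKM at low density, genes of the CDK inhibitors p19, p27 and p21. Among 46 genes of origin licensing and replication, 41 lay below the median of all genes and 0 were past 2-fold in either direction (median -0.33). Cdc6, which loads the helicase, had 7.55 FPKM at high density and 15.3 FPKM at low density, and Mcm4, a subunit of it, had 23.6 FPKM at high density and 45.5 FPKM at low density. DNA repair had a median of -0.28 over 35 genes, with Chek1, the checkpoint kinase of stalled forks, at 8.19 FPKM at high density and 17.8 FPKM at low density. The 48 mitosis genes, however, had a median of 0.03 and 0 past 2-fold. Mki67 had 48.3 FPKM at high density and 58.3 FPKM at low density and Ccnb2, a mitotic cyclin, had 122 FPKM at high density and 89.7 FPKM at low density.

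The genes of enzymes that make nucleotides lay mostly on the lower side, like those of replication. Of 30 measured, 22 lay below the median of all genes (list median -0.33), and Rrm2 alone was 2-fold lower. Pfas, of purine synthesis, had 10.7 FPKM at high density and 22.2 FPKM at low density, Tyms, thymidylate synthase, had 12.4 FPKM at high density and 22.9 FPKM at low density, and Umps, of pyrimidine synthesis, had 16.2 FPKM at high density and 28.9 FPKM at low density. Impdh1 and Impdh2, which commit purines to guanine nucleotides, lay the other way at ratios of 0.30 and 0.34.

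The genes of the ribosome divided between its proteins and the machinery that builds it. Ribosomal protein genes had medians of 0.53 (large subunit, 45 genes) and 0.57 (small subunit, 29 genes), with all but 1 of them above the median of all genes. Of 63 nucleolar and ribosome biogenesis genes, 53 lay below it, and the list median was -0.45 with 0 past 2-fold. Tsr1, a late assembly factor of the small subunit, had 13.4 FPKM at high density and 27.2 FPKM at low density, and Imp4, of the early small subunit processome, had 22.8 FPKM at high density and 44.3 FPKM at low density. Polr1b, a core subunit of RNA polymerase I, had 9.64 FPKM at high density and 18.6 FPKM at low density, and Nop58, a core protein of box C/D particles, had 51.6 FPKM at high density and 92.2 FPKM at low density. Fau, with the largest ratio of the small subunit list, had 3278 FPKM at high density and 1836 FPKM at low density, and Rpl13, with that of the large subunit, had 3208 FPKM at high density and 1843 FPKM at low density. As a share of all summed FPKM, ribosomal protein genes held 19.2% at high density and 14.9% at low density. Levels of these short transcripts went with a length trend described below, and after its removal their medians still lay 0.37 and 0.46 above that of all genes.

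Nuclear transport and splicing genes were lower along with ribosome assembly. Only 2 of 36 nuclear pore and import genes, Rangap1 and Ipo5, lay above the median of all genes, and the list median was -0.40. The scaffold nucleoporin genes were among the lowest, Nup155 having 12.2 FPKM at high density and 23.6 FPKM at low density and Nup160 having 8.35 FPKM at high density and 15.8 FPKM at low density. Cse1l, the exporter that recycles importin alpha, had 50.2 FPKM at high density and 87.5 FPKM at low density. Of 56 spliceosome and hnRNP genes, 40 lay below the median of all (list median -0.27). The lowest were genes of serine and arginine rich splicing factors, with Srsf6 at 54.1 FPKM at high density and 106 FPKM at low density, Srsf2 at 145 FPKM at high density and 264 FPKM at low density and Tra2b at 33.01 FPKM at high density and 62.95 FPKM at low density. The kinases that phosphorylate such factors lay at the opposite end, with Clk3 at 65.8 FPKM at high density and 36.4 FPKM at low density and Clk1 at 51.6 FPKM at high density and 36.3 FPKM at low density. In none of these 3 groups did a gene reach 2-fold on the scaling as deposited. The lowest ratios came close to it, at -0.96 for Tsr1, -0.96 for Srsf6 and -0.90 for Nup155. The list medians are thus small shifts shared by many genes.

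Genes of protein folding in the endoplasmic reticulum were mostly lower. Their list median was -0.28 over 28 genes, 22 of them below the median of all. Hyou1, a large chaperone, had 103 FPKM at high density and 184 FPKM at low density, Hspa5, the chaperone BiP, had 548 FPKM at high density and 896 FPKM at low density, and Pdia4, a disulphide isomerase, had 62.5 FPKM at high density and 108 FPKM at low density. Ero1l and P4hb, in the same list, were the 2 genes past 2-fold, and both were higher. Sterol synthesis had a median of -0.23 over 21 genes, with Hsd17b7 at 5.90 FPKM at high density and 13.5 FPKM at low density. The list of fatty acid synthesis and lipid droplets had no direction, with a median of 0.003 over 23 genes, 12 above 0 and 11 below. In it 3 genes were past 2-fold, all of them higher, Pnpla2 and Lpin1 among them. Hilpda, an inhibitor of lipolysis, lay in a row joined with Fam71f2 at 134 FPKM at high density and 35.9 FPKM at low density. Pnpla2, the triglyceride lipase that it inhibits, had 58.4 FPKM at high density and 25.3 FPKM at low density, and Lpin1, a phosphatidate phosphatase, had 13.5 FPKM at high density and 5.68 FPKM at low density. Genes of fatty acid oxidation and peroxisomes had a median of 0.22 over 33 genes with 0 past 2-fold, Acox3, a peroxisomal oxidase, having 15.2 FPKM at high density and 8.10 FPKM at low density, and this shift fell under 0.2 in 2 of the alternatives. Acaa2 and Mlycd, also enzymes of fatty acid metabolism, are not in that list and lay just past 2-fold higher. Cholesterol efflux genes had a median of 0.25 over 10 genes, and this shift fell under 0.2 in 3 of the alternatives.

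Genes of the circadian clock were higher as a group, a list drawn up after the values were seen. Of 16 measured genes, 7 were past 2-fold, all higher, and the median was 0.69. With no minimum the median lay 0.38 above that of all genes, against 0.68 as reported. Dbp (chr7:45705100-45720835), a transcription factor driven directly by CLOCK and ARNTL, had 24.1 FPKM at high density and 5.35 FPKM at low density. Nr1d1, encoding the repressor REV-ERB alpha, had 13.8 FPKM at high density and 4.62 FPKM at low density, Cry2 had 12.4 FPKM at high density and 3.99 FPKM at low density, and Ciart, a further repressor, had 9.75 FPKM at high density and 3.90 FPKM at low density. The drivers themselves differed less, Clock having 7.32 FPKM at high density and 9.01 FPKM at low density and Arntl having 4.92 FPKM at high density and 3.42 FPKM at low density. The sources used here do not give the hour of harvest. Bhlhe40 and Bhlhe41 belong both to this list and to that of oxygen sensing.

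Immune effector genes of the macrophage were mixed, with the lower ones chiefly chemokines and receptors. Of 12 measured chemokine and chemokine receptor genes, 1 was past 2-fold higher and 3 past 2-fold lower (median -0.47). Of the 3 lower ones, 1 was measured only through the low density library. The 11 genes with at least 1 FPKM in both libraries also had a median of -0.47. Ccl4, an attractant of monocytes and T cells, had 79.8 FPKM at high density and 198 FPKM at low density, and its neighbour Ccl3 had 191 FPKM at high density and 264 FPKM at low density. Cxcl2, a neutrophil attractant, had 1.07 FPKM at high density and 3.19 FPKM at low density and sat near the minimum. Cxcr4 was the higher one. Toll-like receptor genes and their co-receptors had a median of -0.23 over 21 genes with 0 past 2-fold, and their distance from the median of all genes fell under 0.2 in 3 of the alternatives. They included Tlr7, a sensor of RNA, at 16.8 FPKM at high density and 29.6 FPKM at low density and Tlr2, a sensor of lipoproteins, at 38.5 FPKM at high density and 62.7 FPKM at low density. Interferon-stimulated genes had a median of -0.30 over 26, Oas2 having 3.01 FPKM at high density and 6.20 FPKM at low density, while Isg20, an exonuclease, had 3.86 FPKM at high density and 1.26 FPKM at low density. This shift too came under 0.2 in 2 of the alternatives, and 21 of the 26 genes had at least 1 FPKM in both libraries (median -0.29). Immediate early genes diverged, with Fos at 2.06 FPKM at high density and 8.56 FPKM at low density and Dusp6, a phosphatase of ERK, at 2.04 FPKM at high density and 6.91 FPKM at low density among the lower ones, and Maff at 13.3 FPKM at high density and 4.99 FPKM at low density and Atf3 at 75.8 FPKM at high density and 34.2 FPKM at low density among the higher ones.

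Among 38 surface and phagocytic receptor genes the median was -0.15, and the list divided in both directions. Il10ra, the ligand-binding chain of the IL-10 receptor, had 18.4 FPKM at high density and 6.25 FPKM at low density, and Tnfrsf9 had the largest ratio of the list, 3.95. Cd36, a scavenger receptor for lipids, had 8.26 FPKM at high density and 17.5 FPKM at low density and lay just past 2-fold lower. Il15, a cytokine of natural killer and memory T cells, had 7.85 FPKM at high density and 1.57 FPKM at low density. In antigen presentation the median was 0.34 over 12 genes. Cd74, the invariant chain, had 368 FPKM at high density and 157 FPKM at low density, Cd83 had 30.2 FPKM at high density and 12.5 FPKM at low density, and Cd274, encoding PD-L1, had 7.84 FPKM at high density and 3.53 FPKM at low density. Cytip, a regulator of cell adhesion, had 22.9 FPKM at high density and 7.35 FPKM at low density, the only gene past 2-fold of 30 integrin and adhesion genes. Matrix protease genes and their inhibitors had a median of -0.31 over 11 genes, with Adam17, the sheddase that frees TNF, at 47.1 FPKM at high density and 66.1 FPKM at low density and Serpinb9, an inhibitor of granzyme B, at 2.56 FPKM at high density and 6.52 FPKM at low density. With no minimum the median of the list minus that of all genes was -0.07.

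The cytoskeleton differed in a few genes rather than as a class (actin assembly, median -0.09 over 45 genes). Besides Gsn, the intermediate filament gene Vim had 676 FPKM at high density and 204 FPKM at low density and the actin monomer binder gene Tmsb10 had 71.7 FPKM at high density and 34.8 FPKM at low density. Actb, beta actin, had 1058 FPKM at high density and 1685 FPKM at low density. Of the calcium-dependent membrane binders, Anxa4 had 117 FPKM at high density and 49.8 FPKM at low density and Anxa2 had the largest ratio of its list, 1.73. The apoptosis genes had a median of -0.04, with 3 members past 2-fold: Mcl1, which protects cells, at 278 FPKM at high density and 115 FPKM at low density, Bbc3, which kills them, at 53.8 FPKM at high density and 23.4 FPKM at low density, and Casp6, a caspase, at 16.9 FPKM at high density and 7.48 FPKM at low density. The Hippo pathway is a route by which many adherent cells sense crowding. Of 22 listed genes of the pathway and targets of its effectors, 14 did not reach the minimum. The 8 measured, which mix both kinds, had a median of -0.17.

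Metal and redox genes differed singly. In the iron and heme list (28 genes, median 0.08) Tfrc alone was past 2-fold. The ferritin light chain gene Ftl1 had 8684 FPKM at high density and 5696 FPKM at low density, the heavy chain gene Fth1 had 7900.3 FPKM at high density and 7037 FPKM at low density, and Hmox1, heme oxygenase, had 213 FPKM at high density and 116 FPKM at low density. Mt2, a metallothionein, had 135 FPKM at high density and 43.9 FPKM at low density and Mt1 had 652 FPKM at high density and 428 FPKM at low density. Of the cell surface carbonic anhydrase genes, Car12 had 4.37 FPKM at high density and 0.440 FPKM at low density and was past 2-fold, and Car9 had 6.25 FPKM at high density and 3.06 FPKM at low density. Car12 was measured only through the high density library, so the minimum fixed the direction of its difference. The list of pH regulation and carbonic anhydrases had no direction (median 0.03 over 7 genes). Over the 6 members with at least 1 FPKM in both libraries the median was -0.28. Ephx1 was the sole gene past 2-fold among 32 genes of glutathione, thioredoxin and NRF2, whose median was 0.06. Glutamate-cysteine ligase genes Gclm and Gclc, well-known NRF2 targets, lay at -0.49 and -0.32.

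Messenger RNAs encoded in mitochondrial DNA were lower, while nuclear genes of the respiratory chain had no direction. The rows of mRNAs encoded in mitochondrial DNA made up 11.6% of all summed FPKM at high density and 19.3% at low density. The 8 that had rows of their own lay below the median of all genes, with a list median of -0.66. They were not uniform, running from -0.98 for CYTB to -0.18 for COX2 and -0.02 for COX1, which hardly differed. Nuclear genes of complex I had a median of 0.16 (34 genes) and those of complexes III to V 0.17 (32 genes). Both lay within the margin of 0.2 from the median of all genes. After the trend on length and GC content described below was removed, they lay 0.05 and -0.004 from it. Lonp1, a matrix protease, had 166 FPKM at high density and 72.4 FPKM at low density and was past 2-fold. Cox4i2, a subunit variant of cytochrome oxidase that HIF is known to raise in place of Cox4i1, had 1.64 FPKM at high density and 0.370 FPKM at low density, while Cox4i1 had 1264 FPKM at high density and 940.3 FPKM at low density. Cox4i2 thus remained a minor transcript beside Cox4i1 in both libraries, on the per-length FPKM scale.

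**Figure D4:**
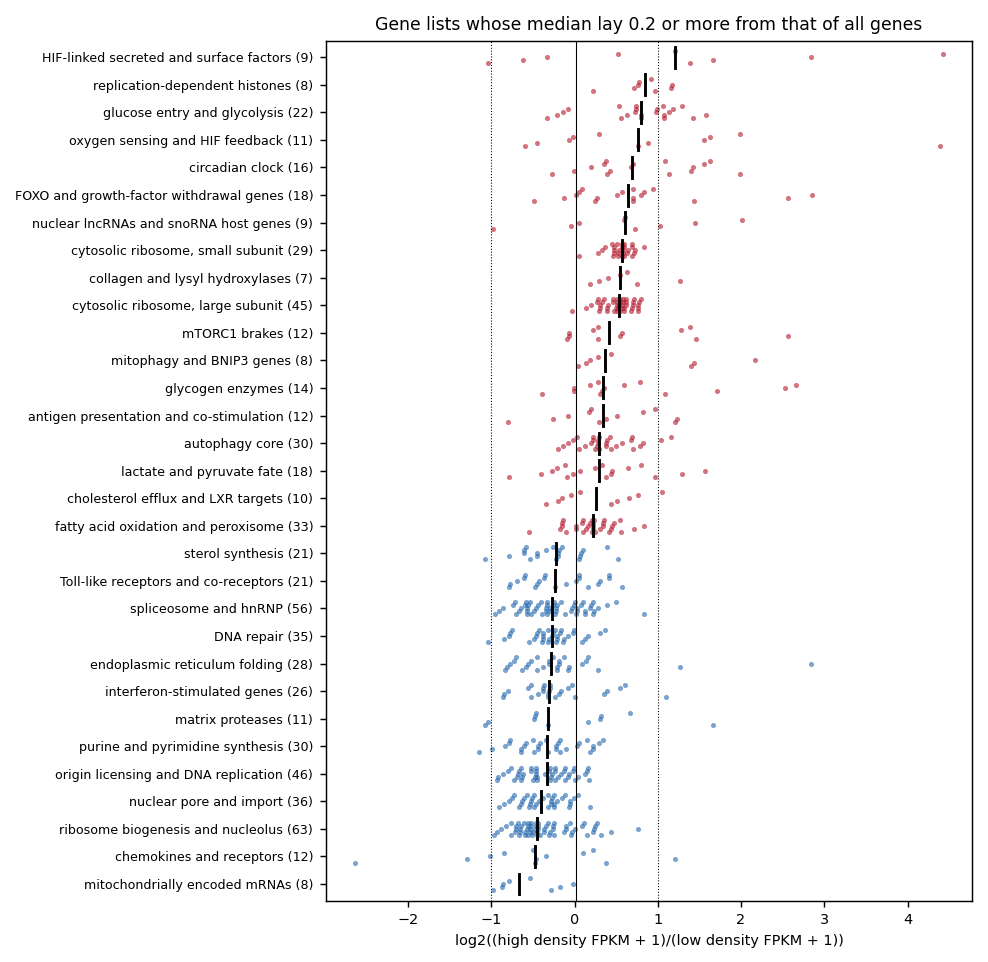
Log2 ratio of high over low density (horizontal) of every measured member (points, number in brackets) of the 31 gene lists whose median lay at least 0.2 from that of all genes, red for the 18 higher and blue for the 13 lower lists, with black bars at list medians, the solid line at the median of all genes and dotted lines at 2-fold. Few points of the lower lists pass the dotted lines, whereas lists of HIF-linked, glycogen and growth-braking genes have members far beyond them.

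Of 71 lists, 18 lay above and 13 below the median of all genes by the margin of 0.2. Ratios also followed properties of the transcripts. In the 10% of genes with the shortest transcripts (up to 1456 bases) the median ratio was 0.19 and 4.69% were at least 2-fold higher, against -0.11 and 1.07% in the 10% with the longest (from 6694 bases). In the 10% with the highest GC content (from 57.6%) the median was 0.20 and 5.86% were at least 2-fold higher, against -0.16 and 0.213% in the 10% with the lowest (up to 41.3%). Genes with a mean of at least 500 FPKM had a median of 0.48, and 11 of 167 were at least 2-fold higher and 0 lower. After a smooth trend on length and GC content was removed, 245 genes were past 2-fold higher and 83 past 2-fold lower, and 0 of the 30 lists with lengths for their members changed sign, although the median of cholesterol efflux genes minus that of all genes was then 0.09, and that of Toll-like receptor genes -0.17. The part of these trends in any single gene's ratio was not tested.

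**Figure D5:**
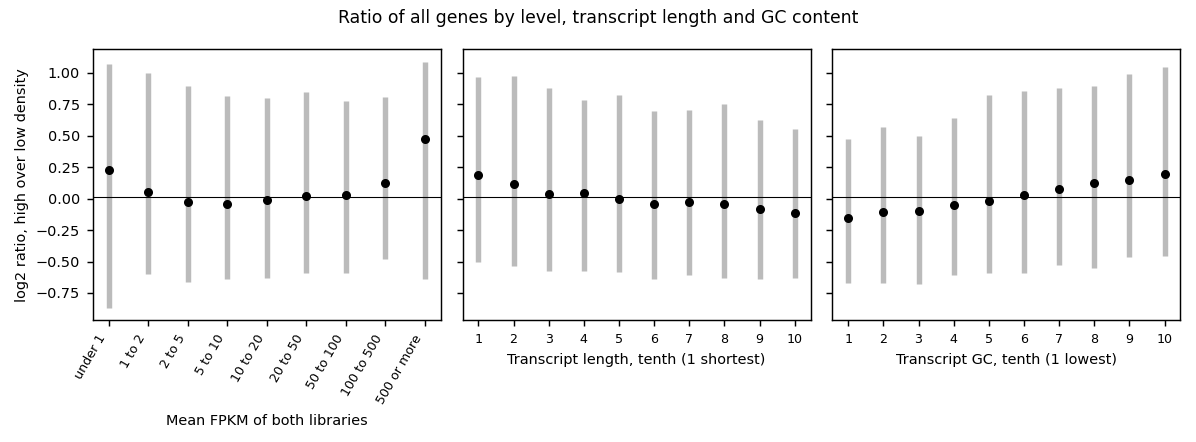
Median log2 ratio of high over low density (points) and the range of the middle 90% of genes (grey bars) by mean FPKM of both libraries, and by transcript length and GC content in 10 groups of equal size, with the line at the median of all genes. The median is 0.19 for the shortest and -0.11 for the longest transcripts, and -0.16 at the lowest and 0.20 at the highest GC content.

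At the threshold itself the genes differed by little. Just inside 2-fold higher lay Acaa2, with 50.3 FPKM at high density against 24.6 at low density, and Mlycd, with 17.7 FPKM at high density against 8.33 at low density. Just outside lay Rdh9, with 1.20 FPKM at high density against 0.0984 at low density, and Gm9803, with 1.97 FPKM at high density against 0.486 at low density. Cd36 and Lilr4b lay just inside 2-fold lower, Lilr4b with 23.3 FPKM at high density against 47.6 at low density, and Hells, a chromatin remodeller, lay just outside, with 19.1 FPKM at high density against 39.1 at low density.

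The high density library is also in the authors' table with lipopolysaccharide (LPS), where it was scaled anew. Across 10394 genes the median log2 ratio of its values there over those used here was -0.13, and for the 39 genes of both ends that could be compared they differed by between -0.52 and 0.24. The 2 comparisons share the high density library, so values are given side by side only. In the LPS table Selenbp1 had 42.2 FPKM with LPS and 206 FPKM without it at high density, and Ankrd37 had 8.17 FPKM with LPS and 134 FPKM without it. Tfrc had 88.2 FPKM with LPS and 10.8 FPKM without it. Ero1l, in contrast, had 454 FPKM with LPS and 291 FPKM without it.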

How the data were processed

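RNA of 1 library per group was compared between high and low density. Per the submitters' processing notes, FastQC, fastp, TopHat2 and Cuffdiff were used with builds GRCm38 and mm10. The sources used here do not give versions, the gene annotation, strandedness or the scaling method. Expression values are FPKM as the authors deposited them, with Cuffdiff's own scaling, and the deposited table also holds a log2 fold change, a test statistic (a score), a p-value and a q-value per locus, per the file headers. No other column of per-sample values was left unused (0).

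Ratios were computed here as log2((HD + 1)/(LD + 1)) with Python 3.11.15 and pandas 2.3.3, for genes of at least 1 FPKM in either library. Starts are 1-based. Rows that join several symbols (339) cannot be divided, and without strand, overlapping genes cannot be separated. Members of such rows were left out of list counts, and 23 list entries were matched by RefSeq synonyms. Transcript length and GC content were taken from GENCODE M21 by symbol, for 92.0% of genes. Only the calling of genes past 2-fold was checked on simulated data, with planted differences. The lists, promoters and trends were not part of that check.

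The 71 gene lists and the members were chosen with earlier results of these data known, and the circadian list after its values were seen. Genes were named by these rules: among protein-coding genes, the 20 with the largest and the 20 with the smallest ratio that had at least 10 FPKM in the higher library, values above 0 in both and a single row and symbol; up to 4 farthest members of each list with a direction, and members of any list past 2-fold; genes of q below 0.05 in the authors' deposited table; the 20 most abundant genes; the 2 genes on each side of the thresholds; and Hif1a, Nos2, Tfrc, Slc2a1, Vegfa, Bnip3, Ccng2, Hmox1, Mki67, Csf1r, Adgre1 and Cd68. Other genes in the text were chosen after their values were seen. Some genes that these rules name are not reported here. No test was run, since 1 library a group leaves no residual degrees of freedom. Alternatives were 15, covering pseudocount, minimum, rows, scaling, gene class, fold and the trend on length and GC content.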

Additional observations from a re-analysis of the deposited data

Results flagged for a closer look

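The comparison used genes with a symbol only. Outside it, 3 loci without a symbol had a q-value of 0.0217 in the authors' deposited table and were higher at high density. A locus on chromosome 13 from 9834302 to 9834524 had 3974 FPKM at high density and 830.2 FPKM at low density. A locus on chromosome 13 from 23657888 to 23659786 had 1.92 FPKM at high density and was listed at 0 at low density, and a locus on chromosome 11 from 78994011 to 78996890 had 0.886 FPKM at high density and was likewise listed at 0 at low density. Positions are on GRCm38, and what these loci encode was not analysed here.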

How the results depend on the processing

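No paired analysis was possible because each group had 1 library and the results come from no test. Against 386 genes higher and 99 lower as reported, a pseudocount of 0.1 gave 638 higher and 221 lower, a pseudocount of 5 gave 167 and 36, and no pseudocount gave 641 and 219. A threshold of 1.5-fold gave 1249 higher and 661 lower, and 3-fold gave 104 and 24. Rescaling without the 20 highest rows gave 246 higher and 249 lower and a median of -0.21 for all genes. Protein-coding genes alone held 268 higher and 57 lower ones. Removing the trend on length and GC content, an alternative chosen after seeing the data, left 245 higher and 83 lower. Of the 40 genes at the ends of the ranking, 33 stayed past 2-fold in each alternative that changed ratios and gave them a value, and 0 changed sign. Gm46911 and LOC115490135, counted among the 33, had no transcript length and so no value without the trend. Of the 31 lists with a direction, 0 changed sign in any alternative that gave them a value, mitochondrially encoded mRNAs having none without the trend. Cholesterol efflux, Toll-like receptors (3 alternatives each), fatty acid oxidation, interferon-stimulated genes (2 each), oxygen sensing and matrix proteases (1 each) fell under the margin of 0.2 in some. The cause of these moves was not tested. Values near 1 FPKM rest on few fragments, and without a second library nothing separates density from differences between cultures or preparations.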

Other observations

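Many of the extreme ratios belonged to short noncoding RNAs. Of 41 genes past 8-fold in either direction, 14 were snoRNAs, 6 snRNAs and 10 protein-coding. Of 22 measured snoRNAs, 8 were at least 2-fold higher and 9 lower, and many were listed at 0 in 1 library. Snord14c had 504.8 FPKM at high density and was listed at 0 at low density, whereas Snord35a was listed at 0 at high density and had 602.5 FPKM at low density. Rmrp, the RNA of RNase MRP, had 65.1 FPKM at high density and 15.4 FPKM at low density. Small nucleolar RNA host genes were higher, Snhg6 having 72.3 FPKM at high density and 25.9 FPKM at low density and Epb41l4aos 33.03 FPKM at high density and 15.7 FPKM at low density. Malat1, a nuclear long noncoding RNA, had 304 FPKM at high density and 199 FPKM at low density, while Neat1 had 256 FPKM at high density and 264 FPKM at low density.

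Replication-dependent histone genes, most of whose mRNAs lack a poly(A) tail, had 8 measured members of 41 listed, with 22 not found by name. Of these, 4 had at least 1 FPKM in both libraries and the other 4 were measured only through the high density library. The list median lay 0.83 above that of all genes, but 0.38 with a pseudocount of 5, 0.43 with no minimum, 1.35 with a pseudocount of 0.1 and 1.44 without one. Hist1h1c had 10.4 FPKM at high density and 5.72 FPKM at low density, and Hist1h4n had 2.92 FPKM at high density and 0.747 FPKM at low density. The sources used here do not give the RNA selection used in library preparation.

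Genes often used as references in qPCR were not uniform. Of 18 such genes, log2 ratios ran from -2.75 for Tfrc to 1.06 for Pgk1. Gapdh had 3257 FPKM at high density and 1879.9 FPKM at low density, Actb had 1058 FPKM at high density and 1685 FPKM at low density, and Tbp had 16.3 FPKM at high density and 20.2 FPKM at low density.

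Of 685 measured loci without a symbol, 113 (16.5%) passed 2-fold on the higher side and 18 (2.63%) on the lower side at high density, against 3.54% and 0.907% of genes with a symbol.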
